A study of Mus musculus with 13 samples.

Results

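The Fc receptor genes examined were *Fcgr1*, *Fcgr2b*, *Fcgr3*, *Fcgr4*, *Fcer1g* and *Fcgrt*, 6 of the 35967 gene symbols measured by bulk RNA-Seq in isolated mouse glomeruli. They were chosen by name, as the 4 mouse receptors for the Fc part of IgG on immune cells, their shared signalling chain, and the neonatal Fc receptor. All 6 were present in the table, and 5 passed the filter on low values; *Fcgr1* stayed below it in every library. The libraries came from wild-type Balb/c mice injected i.p. with 2 mg of rabbit IgG. Control IgG mice received preimmune IgG (n = 5), and MN mice received anti-THSD7A IgG and were euthanised on day 1 (n = 4) or day 5 (n = 4), with 1 library per mouse. THSD7A is a podocyte membrane protein, and antibodies against it cause membranous nephropathy (MN), in which IgG is deposited at the glomerular filtration barrier. The study used only male mice for this model, and its controls from the 2 days form a single group here, because the labels do not give the day of each control mouse. Rabbit IgG was thus injected in all 3 groups, and its specificity differed. On day 5, the study's stainings showed rabbit IgG along the filtration barrier after anti-THSD7A IgG and none detectable after control IgG. Time after injection also differed between the MN groups and was mixed among controls.

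Fc receptors bind the constant part of antibodies and so link deposited IgG to cells. The activating receptors encoded by *Fcgr1*, *Fcgr3* and *Fcgr4* are carried by macrophages, monocytes and, in part, neutrophils and NK cells, and they signal through the FcRγ chain encoded by *Fcer1g*, whose tyrosine motif recruits the kinase SYK. The receptor encoded by *Fcgr2b* carries an inhibitory motif that recruits the phosphatase SHIP1, and it is expressed by B cells, myeloid cells and some endothelial cells. FcRn, encoded by *Fcgrt*, pairs with β2-microglobulin and returns IgG and albumin from endosomes to the cell surface. It is made by podocytes and endothelial cells of the kidney, among other cells.

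In the GRCm39 annotation, 4 of the genes lie within 276034 bp of chromosome 1. *Fcgr2b* (1:170786186-170804177, minus strand), *Fcgr4* (1:170846466-170857330, plus strand), *Fcgr3* (1:170878738-170893549, minus strand) and *Fcer1g* (1:171057141-171062219, minus strand) follow each other there. *Fcgr1* lies apart at 3:96190225-96201338 and *Fcgrt* at 7:44742412-44756819, both on the minus strand. *Fcgr2b* and *Fcgr3* are near-identical in places, which matters here because their reads are split by the quantification. Coding exon 4 of each, which encodes part of the extracellular region, is 255 bases long, and 250 of these bases are the same in both genes (98.04%). Both exons are shown 5′ to 3′ on the minus strand of chromosome 1, with the 5 bases that differ in capitals.
Fcgr2b exon 4, chr1:170794015-170794269: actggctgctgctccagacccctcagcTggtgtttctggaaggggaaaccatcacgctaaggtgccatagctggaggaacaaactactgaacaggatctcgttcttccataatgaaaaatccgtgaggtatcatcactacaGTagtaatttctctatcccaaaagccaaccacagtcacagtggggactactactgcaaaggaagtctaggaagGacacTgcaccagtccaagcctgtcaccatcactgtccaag
Fcgr3 exon 4, chr1:170881508-170881762: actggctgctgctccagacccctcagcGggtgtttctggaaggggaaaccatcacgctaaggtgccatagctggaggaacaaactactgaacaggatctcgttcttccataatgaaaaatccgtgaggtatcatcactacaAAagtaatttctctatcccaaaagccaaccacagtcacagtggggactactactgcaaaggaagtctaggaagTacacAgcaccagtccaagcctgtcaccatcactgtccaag
The longest run without a difference is 113 bases. For comparison, exon 3 of *Fcgr2b* and exon 3 of *Fcgr4*, also 255 bases each, match at 61.57% of positions.

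Kallisto, with which the authors assigned reads to transcripts, matches stretches of 31 bases by default. Of all such stretches in the annotated transcripts of *Fcgr3*, 10.34% also occur in another gene, and 7.123% occur in *Fcgr2b*. For *Fcgr2b* the share in any other gene is 11.12%, of which 4.063% is *Fcgr3* and 5.118% is the overlapping gene *Gm38204*. The share is 1.331% for *Fcgr4*, 1.274% for *Fcgrt*, and 0% for *Fcgr1* and *Fcer1g*. The assignment of reads is therefore less certain for *Fcgr2b* and *Fcgr3* than for the others, and how far their reads were exchanged was not tested. The reference is from another mouse strain than Balb/c, and the effect of that was not tested either.

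Values were deposited as TPM, a measure of transcript abundance that allows for transcript length and total per library but carries no read depth, so no counting error could be attached to them. Between 46.5% and 49.5% of symbols were listed at 0 per library. Podocyte markers summed to 6481 to 8763 TPM and endothelial markers to 7259 to 11466 TPM per library, so the defining markers of the labelled tissue were present. Proximal tubule markers were also present, at 2180 to 8155 TPM in control, 3855 to 7091 TPM in MN day 1 and 2840 to 3448 TPM in MN day 5 libraries. On day 1, all 8 tubule markers had higher means than in controls (median log2 difference 0.73), although 0 were called (adjusted limma test). At an unadjusted p-value under 0.05, limma gave 6 of the 8, beside 12.6% of all tested genes. Markers of distal nephron segments summed to 255 to 515 TPM in control, 493 to 896 TPM in MN day 1 and 345 to 477 TPM in MN day 5 libraries. Among them, *Calb1* and *Slc12a3* were 1.49 and 1.40 above controls on the log2 scale on day 1 (adjusted p = 0.0982 and 0.130, limma). Their groups did not overlap, as was so for 4.22% of all tested genes. Between day 5 and day 1, *Aqp2* fell by 1.30 (adjusted p = 0.0286, limma) and *Calb1* fell by 1.39 (adjusted p = 0.0313, limma). These were 2 of the 5 distal markers, beside 1.81% of all tested genes called in either direction. The part of tubule tissue in the receptor levels was not tested beyond a covariate in the fit.

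The 6 genes covered a wide range of levels. *Fcgrt* was by far the most abundant, with a mean of 117 TPM over the 13 libraries, 13.6 times that of *Fcer1g* (8.61 TPM), and the ranges of these genes did not overlap. *Fcer1g* exceeded *Fcgr2b* (mean 4.26 TPM) in 12 of 13 libraries, and *Fcgr2b* exceeded *Fcgr3* (2.28 TPM) in 12 of 13, although over all libraries the ranges of each pair overlapped. *Fcgr3* and *Fcgr4* (1.59 TPM) were not separated, with *Fcgr3* higher in 8 of 13 libraries. *Fcgr1* was lowest, with a mean of 0.521 TPM, and lay below *Fcgr4* in all 13 libraries. Among the IgG receptors of immune cells, the inhibitory gene thus had a higher mean than each of the activating genes in all 3 groups.

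**Figure D1:**
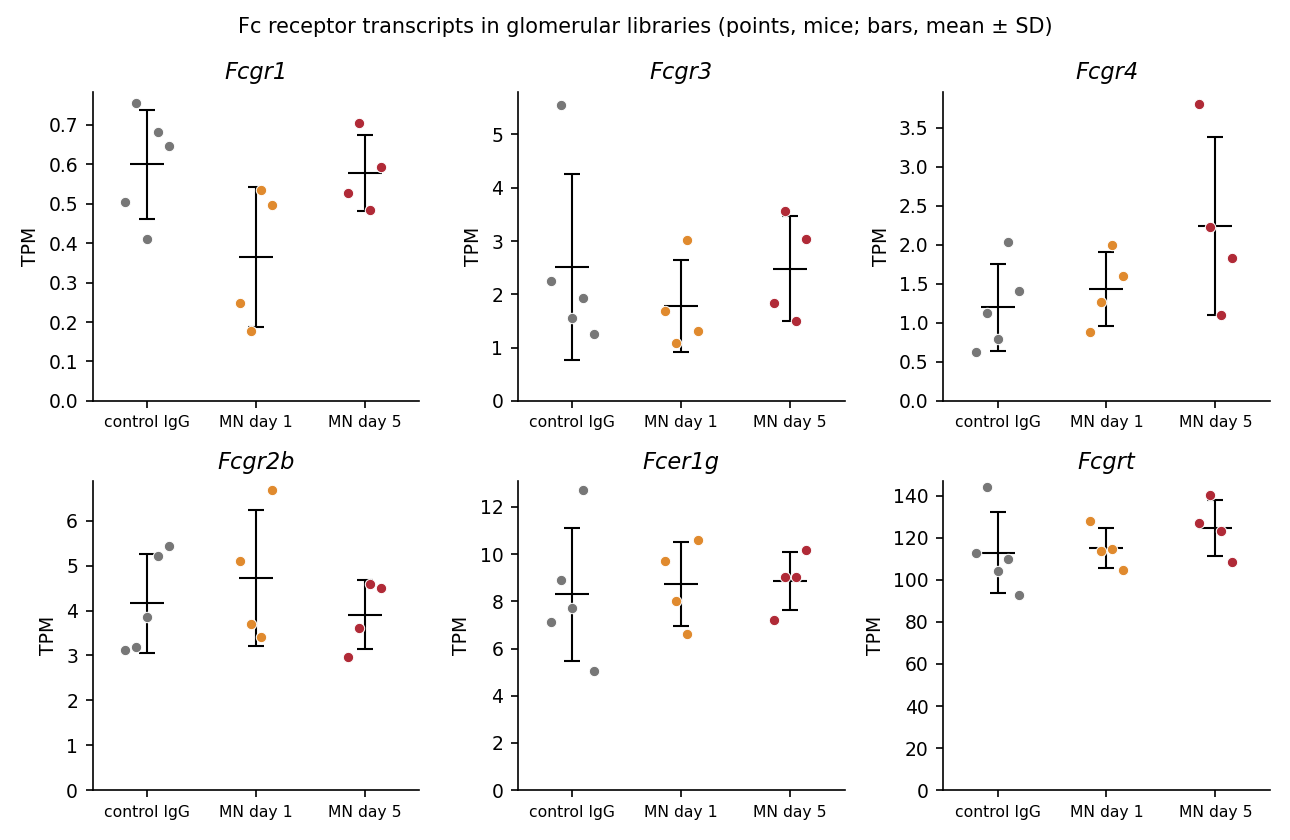
TPM of the 6 Fc receptor genes (y axes, linear and starting at 0, a scale of its own for each gene) in control IgG (n = 5), MN day 1 (n = 4) and MN day 5 (n = 4) libraries (x axes). Points are mice, horizontal lines are means and bars are SDs. The points of the 3 groups overlap for every gene, control replicate 2 stands apart for Fcgr3 at 5.56 TPM, and the highest Fcgr4 value is 3.80 TPM in an MN day 5 library.

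*Fcgr4* encodes an activating receptor for IgG that mouse monocytes, macrophages and neutrophils use, and its means differed most. Control libraries 1 to 5 held 0.631, 1.12, 0.798, 2.04 and 1.41 TPM. MN day 1 libraries 1 to 4 held 0.884, 1.26, 2.00 and 1.60 TPM, and MN day 5 libraries 1 to 4 held 3.80, 2.23, 1.11 and 1.84 TPM. The 2 highest values of all libraries were from day 5, but the other day 5 values lay within the control range. Mean levels were 1.20 ± 0.556 TPM in controls (SD, n = 5), 1.44 ± 0.475 TPM on day 1 (n = 4) and 2.24 ± 1.14 TPM on day 5 (n = 4). On the scale of log2(scaled TPM + 0.5), on which all differences are given and which understates changes of low genes, day 5 exceeded controls by 0.69 (95% CI 0.00 to 1.37, SE 0.32), 1.61-fold. The unadjusted p-value was 0.04997 and the adjusted p-value 0.249 (limma, Benjamini-Hochberg over 14322 genes), so the difference was not called. Without MN day 5 replicate 1, the difference was 0.42 with an adjusted limma p-value of 0.558.

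*Fcgr3* encodes the low-affinity activating receptor. Its level was 2.25, 5.56, 1.55, 1.93 and 1.25 TPM in control libraries 1 to 5. It was 1.68, 1.09, 3.02 and 1.31 TPM in the 4 MN day 1 libraries, and 1.83, 3.57, 1.50 and 3.04 TPM in the 4 MN day 5 libraries. Control replicate 2 was the highest of all libraries, above both MN groups, and the other controls fell within the day 1 range. The log2 difference from controls was -0.28 on day 1 (95% CI -1.05 to 0.48; adjusted p = 0.780, limma) and 0.11 on day 5 (95% CI -0.65 to 0.87; adjusted p = 0.910, limma). Without control replicate 2, the same differences were -0.00 and 0.39. With the proximal tubule markers as a covariate, the day 1 difference turned to 0.35. The intervals were the widest of the 5 tested genes. The day 1 interval held decreases beyond the threshold of 0.5, and the day 5 interval held changes beyond it in either direction.

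*Fcgr1* encodes the high-affinity receptor for IgG. It was listed at 0.504, 0.755, 0.412, 0.682 and 0.647 TPM in controls. Values were 0.249, 0.178, 0.534 and 0.497 TPM on day 1 and 0.527, 0.705, 0.485 and 0.594 TPM on day 5. The 2 lowest values of all libraries were from day 1, but the other day 1 values overlapped with both groups. No library reached the 1 TPM that the filter asks for, so the gene was not tested in the main comparison. In a fit without the filter, the log2 difference from controls was -0.34 on day 1 (95% CI -0.67 to -0.01; adjusted p = 0.518, limma) and -0.00 on day 5 (95% CI -0.33 to 0.33; adjusted p = 1, limma).

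*Fcgr2b*, the inhibitory receptor gene, was at 3.12, 3.19, 3.86, 5.21 and 5.44 TPM in controls. It was at 5.10, 3.70, 3.41 and 6.69 TPM on day 1 and at 2.96, 3.61, 4.58 and 4.49 TPM on day 5. The highest value came from day 1 and the lowest from day 5, and all 3 groups overlapped. The log2 difference from controls was 0.19 on day 1 (95% CI -0.28 to 0.66; adjusted p = 0.754, limma) and -0.04 on day 5 (95% CI -0.51 to 0.43; adjusted p = 0.958, limma). The day 1 difference turned to -0.20 with the proximal tubule covariate and lay between 0.0248 (without MN day 1 replicate 4) and 0.33 (without MN day 1 replicate 3) when 1 library was left out.

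*Fcer1g*, the signalling chain gene, was at 7.10, 8.90, 7.71, 12.7 and 5.04 TPM in controls. It was at 9.72, 8.01, 6.64 and 10.6 TPM on day 1 and at 7.23, 9.04, 9.03 and 10.2 TPM on day 5. Controls held both the lowest and the highest value, so both MN groups lay inside the control range. The log2 difference from controls was 0.15 on day 1 (95% CI -0.29 to 0.60; adjusted p = 0.797, limma) and 0.17 on day 5 (95% CI -0.27 to 0.61; adjusted p = 0.715, limma). Control libraries set much of their size, as they were 0.0155 and 0.0337 without control replicate 5, the lowest, and 0.31 and 0.33 without control replicate 4, the highest.

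*Fcgrt*, the FcRn gene, was at 113, 144, 104.3, 109.9 and 92.8 TPM in controls. It was at 128, 114, 115 and 104.5 TPM on day 1 and at 127, 140.3, 123 and 108 TPM on day 5. Control replicate 2 was the highest and control replicate 5 the lowest library, with both MN groups between them. The log2 difference from controls was 0.09 on day 1 (95% CI -0.15 to 0.32; adjusted p = 0.781, limma) and 0.19 on day 5 (95% CI -0.05 to 0.42; adjusted p = 0.377, limma). These were the narrowest intervals of the 5 tested genes, and they leave out any change of *Fcgrt* above the threshold of 0.5 in either direction.

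Across the 5 tested genes, 0 were called on day 1 against controls, where 0.0908% of all 14322 genes tested were called at an adjusted limma p-value under 0.05 and an absolute log2 difference above 0.5. On day 5, 0 of 5 were called, against 3.21% of all genes. Between day 5 and day 1, 0 of 5 were called, against 1.81% of all genes. At an unadjusted p-value under 0.05, limma gave 0, 1 and 0 of the 5 genes in these 3 comparisons, against 12.6%, 20.1% and 15.5% of all genes, and the 1 gene was *Fcgr4*. In none of the comparisons were the groups of any of the 6 genes free of overlap, whereas 4.22%, 10.8% and 11% of all tested genes had groups that did not overlap. With 5 tested genes, a count of 0 is close to these shares. The calls among all genes on day 1, 13 in number, became 218 without control replicate 5, the control with the highest proximal tubule sum, and those between the days went from 259 to 437, with the 5 genes at 0 in both. Between day 5 and day 1, log2 differences ranged from -0.23 for *Fcgr2b* to 0.44 for *Fcgr4* (95% CI -0.28 to 1.17; adjusted p = 0.594, limma). Proximal tubule markers also differed between these groups, with all 8 lower on day 5 and 5 without overlap, and with them as a covariate the differences of *Fcgr2b*, *Fcgr3*, *Fcer1g* and *Fcgrt* turned sign. The median log2 difference of the 5 genes was 0.15 on day 1 and 0.17 on day 5, beside -0.00 on both days for all tested genes.

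**Figure D2:**
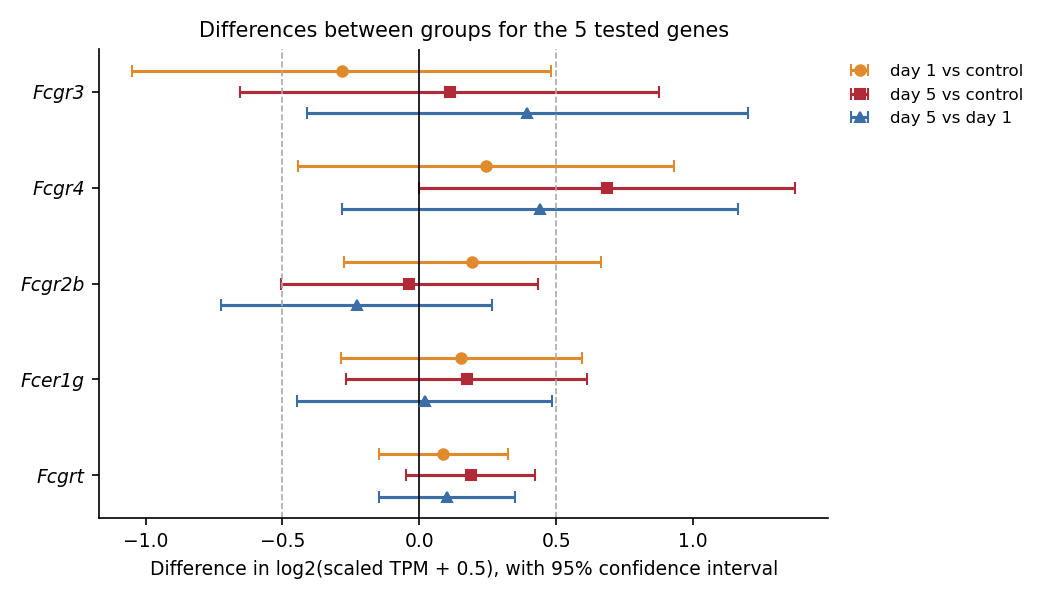
Differences between groups for the 5 tested Fc receptor genes on the scale of log2(scaled TPM + 0.5) (x axis), with 95% confidence intervals as bars; circles are day 1 against control, squares day 5 against control, and triangles day 5 against day 1. Dashed lines mark the threshold of 0.5 in either direction. The intervals include 0 except that of Fcgr4 on day 5 against control, whose lower end is 0.00, and they are widest for Fcgr3 and narrowest for Fcgrt.

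Differences between mice of 1 group set these limits. The SD within groups, on the log2 scale, was 0.57 for *Fcgr3*, 0.49 for *Fcgr4*, 0.34 for *Fcgr2b*, 0.33 for *Fcer1g* and 0.18 for *Fcgrt*, beside a median of 0.17 for all tested genes. Genes of a like level, within 0.25 log2 units, had median SDs of 0.37, 0.40, 0.30, 0.23 and 0.11 in the same order. Each of the 5 genes thus varied more between mice of a group than the median gene of its level, a difference that was not tested.

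The balance of activating over inhibitory receptors was expressed as the ratio of TPM within a library, which scaling between libraries does not touch. *Fcgr4* over *Fcgr2b* was 0.202 to 0.391 in controls, 0.173 to 0.586 on day 1 and 0.241 to 1.29 on day 5. In MN day 5 replicate 1 alone, *Fcgr4* exceeded *Fcgr2b*. *Fcgr3* over *Fcgr2b* was 0.230 to 1.74 in controls, 0.196 to 0.885 on day 1 and 0.327 to 0.987 on day 5, and control replicate 2 was the only library above 1. *Fcgr1* over *Fcgr2b* was 0.107 to 0.236 in controls, 0.0482 to 0.157 on day 1 and 0.106 to 0.195 on day 5. *Fcer1g* over the sum of the 3 activating receptors was 1.20 to 2.79 in controls, 1.20 to 3.45 on day 1 and 1.17 to 2.92 on day 5, so the signalling chain exceeded its receptors in every library. All ratios overlapped between groups, and none was tested.

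**Figure D3:**
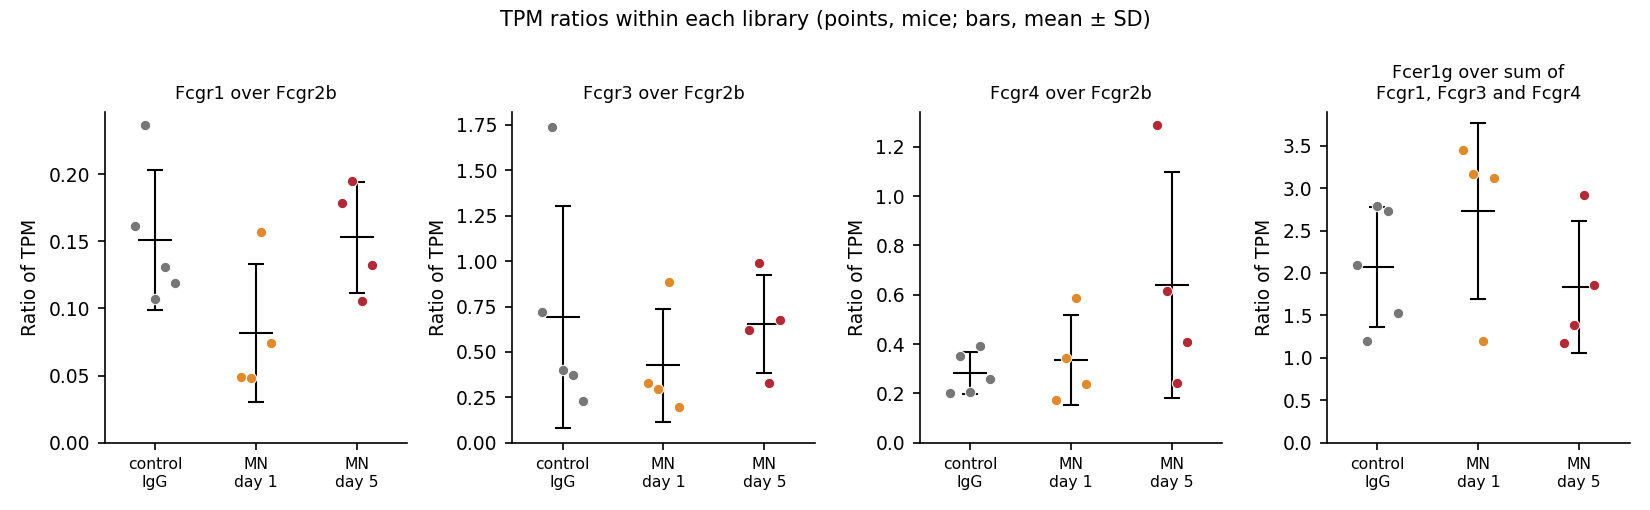
Ratios of TPM within each library (y axes, linear and starting at 0) for the activating receptors over Fcgr2b and for Fcer1g over the sum of Fcgr1, Fcgr3 and Fcgr4, by group (x axes). Points are mice, horizontal lines are means and bars are SDs. Groups overlap in each panel, with 1 control library at 1.74 for Fcgr3 over Fcgr2b and 1 MN day 5 library at 1.29 for Fcgr4 over Fcgr2b.

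Over the 13 libraries, which share any bias of library and tissue composition, *Fcgr2b* and *Fcgr3* went in opposite directions (Pearson r = -0.54). Because these genes share sequence, their sum was also taken. It was 8.75 TPM in control replicate 2 and 5.37 to 7.14 TPM in the other controls, 4.79 to 8.005 TPM on day 1 and 4.78 to 7.53 TPM on day 5, so the sum overlapped between groups as well. *Fcgr3* went with *Fcgr1* (r = 0.60) and *Fcgrt* (r = 0.56), and the signalling chain *Fcer1g* had r between 0.10 and 0.12 with its partners *Fcgr3* and *Fcgr4* and of -0.03 with *Fcgr1*. These coefficients describe the libraries and were not tested.

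Of 14 other genes for Fc-binding proteins and their relatives, 6 passed the filter and 0 were called in any comparison (adjusted limma test). At an unadjusted p-value under 0.05, limma gave 1 of 6 in each, beside 12.6%, 20.1% and 15.5% of all tested genes. *B2m*, whose product is the partner of FcRn, was at 1335 ± 80.0 TPM in controls (n = 5) and 1597 ± 95.04 TPM on day 5 (n = 4). Its values in these groups did not overlap, as was so for 10.8% of all tested genes. Its log2 difference was 0.29 (95% CI 0.09 to 0.50) with an adjusted limma p-value of 0.0942. *Pigr*, the receptor that carries IgA and IgM across epithelia, was 0.60 higher on the log2 scale in the day 1 mean (adjusted p = 0.330, limma), in the libraries where tubule markers had higher means. *Trim21*, the cytosolic Fc receptor, was at 18.6 TPM on average, with a log2 difference of -0.04 on day 5 (adjusted p = 0.870, limma). *Fcer1a*, the IgE-binding chain of mast cells, and *Fcrls*, a receptor-like gene of tissue macrophages, were listed at 0 in all 13 libraries.

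Of 55 genes of Fc receptor signalling, 37 activating and 18 inhibitory, 47 were tested and 0 were called in any of the 3 comparisons (adjusted limma test). At an unadjusted p-value under 0.05, limma gave 9 of 47 on day 1 (19.1%), 14 on day 5 (29.8%) and 9 between the days (19.1%). The shares of all tested genes were 12.6%, 20.1% and 15.5%. The median log2 differences of the signalling genes were 0.01, 0.02 and 0.07. Groups did not overlap for 3, 2 and 6 of the 33 tested activating genes. The same was so for 1, 0 and 1 of the 14 tested inhibitory genes, beside 4.22%, 10.8% and 11% of all tested genes. *Syk*, the kinase recruited by the signalling chain, was at 2.03 ± 0.449 TPM in controls (n = 5), 1.44 ± 0.143 TPM on day 1 (n = 4) and 2.17 ± 0.240 TPM on day 5 (n = 4). The MN groups did not overlap for *Syk* (log2 difference 0.45 between day 5 and day 1, 95% CI 0.09 to 0.82; adjusted p = 0.210, limma). *Inpp5d*, which encodes SHIP1, differed by 0.42 between the same days (95% CI 0.08 to 0.77; adjusted p = 0.217, limma) and by 0.20 between day 5 and controls (adjusted p = 0.532, limma). The log2 difference from controls was 0.48 on day 1 for *Ptpn6*, the phosphatase SHP-1 (adjusted p = 0.429, limma). For *Tyrobp*, the adaptor DAP12, it was 0.40 on day 5 (adjusted p = 0.532, limma).

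Among the signalling genes with larger differences on day 5, *Rac2*, a GTPase of the phagocyte oxidase, was 0.98 above controls (adjusted p = 0.325, limma) and *Lat2*, an adaptor of immune cells, was at -0.72 with no overlap of groups (adjusted p = 0.146, limma). *Gab2*, a docking adaptor that binds PI3-kinase, was at 45.1 ± 2.10 TPM in controls, 34.6 ± 4.21 TPM on day 1 and 32.5 ± 1.94 TPM on day 5, with both MN groups below every control. Its log2 difference on day 5 was -0.43 (95% CI -0.62 to -0.24; adjusted p = 0.00993, limma), past the p-value threshold but not the fold threshold. With the replicate block the difference was -0.42 and its adjusted limma p-value 0.0623. That fit pairs no shared animals and takes control replicate 5 out of this comparison. *Lilrb4a*, an inhibitory receptor of myeloid cells, was 0.53 above controls on day 5 (adjusted p = 0.236, limma).

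Activating Fc receptor genes are known targets of interferon-γ, and 17 of 19 genes of that response were tested. None was called in any comparison (0 of 17, adjusted limma test), beside 0.0908%, 3.21% and 1.81% of all tested genes. Unadjusted limma p-values under 0.05 numbered 1, 2 and 1 of 17, beside 12.6%, 20.1% and 15.5% of all tested genes. The median log2 difference was 0.02 on day 1 and 0.14 on day 5. *Cxcl10*, a chemokine, had the largest difference on day 5, at 0.66 (adjusted p = 0.364, limma), and *Irf8*, a transcription factor of the myeloid lineage, was at 0.40 (adjusted p = 0.0881, limma).

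Fc receptors are carried mostly by leukocytes, so markers of such cells are given beside them. In bulk libraries, fewer cells of a type cannot be told apart from less RNA per cell. Of 20 myeloid markers, 18 were tested. On day 1, 0 of 18 were called (adjusted limma test), with a median log2 difference of 0.07. At an unadjusted p-value under 0.05, limma gave 1 of 18, beside 12.6% of all tested genes. On day 5, all 18 had a higher mean than controls, with a median of 0.36, while 7062 of all 14322 tested genes had a higher mean. Unadjusted limma p-values under 0.05 numbered 5 of 18, beside 20.1% of all tested genes. Of the 18 markers, 1 rose past the thresholds, beside 3.21% of all tested genes called in either direction. This was *Ctss*, the lysosomal protease cathepsin S, at 4.14 ± 0.696 TPM in controls (n = 5) and 6.996 ± 1.54 TPM on day 5 (n = 4), with a log2 difference of 0.71 (95% CI 0.33 to 1.09, SE 0.18; adjusted p = 0.0293, limma). The call was lost without control replicate 1, 2, 3 or 5 and without MN day 5 replicate 2 or 3, with adjusted limma p-values of up to 0.106. It was also lost without the filter on low values (adjusted limma p-value 0.0602), while the difference itself stayed between 0.62 and 0.80 in every alternative. The call was lost with the replicate block too (0.128), a fit that pairs no shared animals and takes control replicate 5 out of this comparison. The complement genes *C1qc* and *C1qb* and the leukocyte gene *Ptprc* had day 5 differences of 0.76, 0.68 and 0.71 that were not called.

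Myeloid markers summed to 109 to 162 TPM in controls, 139 to 167 TPM on day 1 and 145 to 188 TPM on day 5. *Mrc1*, *Lyz2* and *Cd14* were the most abundant, at 71.3, 25.8 and 22.2 TPM on average, while *Adgre1*, which defines mouse macrophages, was at only 0.0323 to 0.210 TPM in controls and 0.211 to 1.60 TPM on day 5. *Mrc1*, *Lyz2* and *Cd14* made up most of the sum, which therefore says little about the lower markers. MN day 5 replicate 1, which had the highest *Fcgr4*, had the lowest myeloid sum of the day 5 libraries, 145 TPM. Control replicate 2, which had the highest *Fcgr3*, had the highest myeloid sum of the controls, 162 TPM. Across the 13 libraries, the median r with the 20 myeloid markers was 0.36 for *Fcer1g* and 0.37 for *Fcgrt*, but 0.14 for *Fcgr4*, 0.15 for *Fcgr3*, 0.06 for *Fcgr1* and -0.02 for *Fcgr2b*. The part of myeloid cells in the receptor levels was not tested further.

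Markers of other leukocytes were low. Neutrophil markers summed to 8.64 to 21.5 TPM in controls, 13.8 to 32.1 TPM on day 1 and 6.73 to 26.7 TPM on day 5. *S100a8* and *S100a9* made up 82.3% to 85.9% of the mean sum in each group, and *Ly6g* was listed at 0 in 11 of 13 libraries. Of 3 tested neutrophil markers, 0 were called in any comparison (adjusted limma test). Beside 12.6% of all tested genes, 1 of the 3 had an unadjusted limma p-value under 0.05 on day 1. This was *S100a9*, at 6.09 ± 3.59 TPM in controls (n = 5) and 12.2 ± 3.65 TPM on day 1 (n = 4), with overlapping groups and a log2 difference of 1.13 (95% CI 0.21 to 2.05; adjusted p = 0.324, limma). B cell markers summed to 0.593 to 2.78 TPM over all libraries and had 0 tested genes. T and NK cell markers summed to 3.18 to 7.05 TPM and mast cell markers to 0.780 to 3.50 TPM, with 1 tested gene and 0 calls each (adjusted limma test). The T and NK cell gene had unadjusted limma p-values under 0.05 in 2 comparisons, day 5 against controls and between the days. Such values had 20.1% and 15.5% of all tested genes there. The mast cell gene had them in 0 comparisons.

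**Figure D4:**
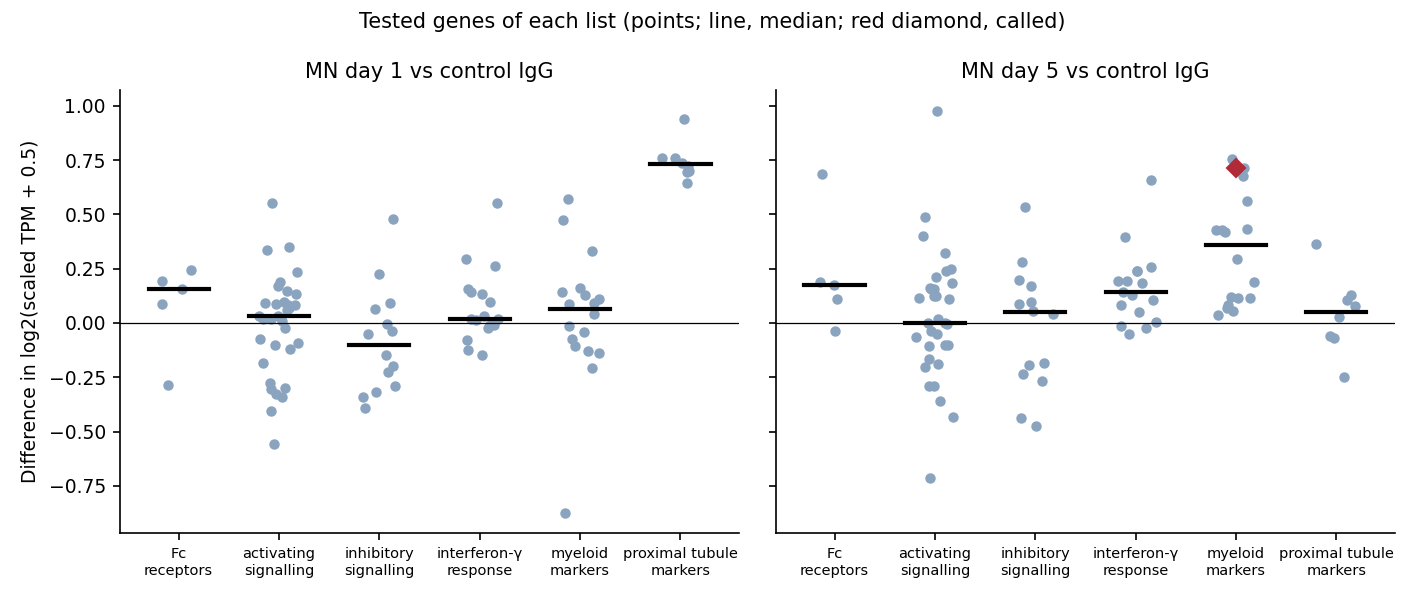
Differences from control on the scale of log2(scaled TPM + 0.5) (y axis) on day 1 (left) and day 5 (right) for the tested genes of each list (x axis). Points are genes, horizontal lines are medians, and a red diamond marks a called gene, of which there was 1, Ctss on day 5. The 5 Fc receptor genes range from -0.28 to 0.24 on day 1 and from -0.04 to 0.69 on day 5, the 18 myeloid markers lie above 0 on day 5, and the 8 proximal tubule markers lie above 0 on day 1.

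The genes whose levels followed each Fc receptor gene most closely over the 13 libraries were different for each. They were *Epb41l3* (r = 0.90), *Pgap6* (0.89) and *Dis3l2* (0.89) for *Fcgr2b*, and *Scarb1* (0.87), *Lamb1* (0.86) and *Gprin3* (0.84) for *Fcgr3*. For *Fcgr4* they were *Mtdh* (0.89), *Nectin3* (0.85) and *Panx1* (0.85), and for *Fcer1g* *Mvk* (0.87), *Ahr* (0.86) and *Timm22* (0.82). For *Fcgrt* they were *Clstn1* (0.92), *Tgfb1* (0.91) and *Slc49a4* (0.91). None of the 18 tested myeloid markers and none of the 5 tested receptor genes was among these 15, which were picked as the highest of 14322 genes and say only which profiles look alike in these libraries.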

How the data were processed

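Glomeruli were isolated by perfusion with magnetic beads, and RNA was sequenced as 150 bp paired-end reads. Per the labels and the study's methods, the authors used FastQC 0.11.9, Trimmomatic 0.39 and kallisto 0.46.2 with GRCm39, and deposited TPM per gene symbol. They tested counts, which were not used here, so depth is unknown. Each library was scaled by a median-of-ratios factor (0.955 to 1.04, from 15772 genes), and log2 was taken after adding 0.5. Testing was limited to genes that reached 1 TPM in 4 or more libraries and used limma 3.58.1 (R 4.3.3; all 13 libraries in 1 fit, mean-variance trend), with Benjamini-Hochberg adjustment per comparison. The procedure was tested on simulated data. Loci, exons and shared 31-base stretches came from the GENCODE M39 annotation of GRCm39, not the authors' annotation release.

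The genes and the lists were chosen with earlier results of these data known. Named genes were the 6 receptor genes, called genes, some of the largest differences per list, preset partners (*Syk*, *Inpp5d*, *Ptpn6*, *Tyrobp*, *B2m*, *Trim21*), abundant markers and the 3 most alike genes per receptor gene. A signalling gene that the rule covers is not reported here. Replicate numbers were not shared animals, and their deviations correlated at -0.06 to 0.09. A block on these numbers thus pairs no animals. It also takes control replicate 5, the only library of that number, out of the comparisons with controls. Alternatives covered pseudocounts, scaling, filters, variance model, weights, a tubule covariate, a replicate block and leaving out each library.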

Additional observations from a re-analysis of the deposited data

Results flagged for a closer look

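*Fcgr3* in control replicate 2 stood apart from the rest of its group, at 5.56 TPM against 2.25 TPM in the nearest control library, a gap of 0.767 of the range of the 5 controls. Of 18 combinations of a gene and a group that were checked for a library standing apart, this was the only 1, and chance alone marks about 1 in 20. The same library had the highest *Fcgrt*, the highest sum of *Fcgr2b* and *Fcgr3*, the lowest proximal tubule sum of the controls, 2180 TPM, and the lowest podocyte sum of all 13 libraries, 6481 TPM against 8136 to 8763 TPM in the other controls.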

How the results depend on the processing

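Counts of called Fc receptor genes were 0 in all 75 combinations of a comparison and an alternative, and of 235 log2 differences under alternatives that can move them (pseudocount, scaling, block, weights, covariate or leaving out a library of either group compared), 18 turned sign. With the proximal tubule score as a covariate, the day 1 difference became -0.20 for *Fcgr2b* and 0.35 for *Fcgr3*, and the difference between the days became 0.15 for *Fcgr2b*, -0.21 for *Fcgr3*, -0.0920 for *Fcer1g* and -0.0560 for *Fcgrt*. With the replicate block, the day 5 difference became 0.0712 for *Fcgr2b* and -0.0363 for *Fcgr3*. The block takes control replicate 5 out of this comparison, as no MN library has that number. With array weights, the day 5 difference became 0.0220 for *Fcgr2b*. Leaving out 1 library at a time gave day 5 ranges of -0.12 to 0.0708 for *Fcgr2b* and -0.0663 to 0.39 for *Fcgr3*, and -0.11 to 0.11 for *Fcer1g* between the days. None of these values was called, and the cause of the other shifts was not tested. For *Fcgr4* on day 5, leaving out libraries gave 0.42 to 0.93 (adjusted limma p-values 0.121 to 0.558) and the other alternatives 0.55 to 0.86 (0.215 to 0.354); it has no value when TPM of at least 1 is asked of every library, which it does not reach.

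The adjusted p-value alone called 2 signalling genes on day 5, among them *Gab2*. Between the days, leaving out libraries gave 0 to 1 signalling genes, *Lat2* at -1.02 without MN day 1 replicate 2 (adjusted p = 0.0411, limma). Myeloid calls on day 5 were 0 with no filter, 0 with the replicate block and 0 to 1 when leaving out libraries. The block changed no other call among these lists. It pairs no shared animals and takes control replicate 5 out of the comparisons with controls, also for the counts of all genes below. Calls among all genes on day 1, 13 as reported, were 149 with the block, 7 without the variance trend, 6 without the filter, 2 with the compared groups alone, 0 with the tubule covariate, and 3 to 218 when leaving out libraries. Those between the days, 259 as reported, were 153 when every library had to reach 1 TPM, 170 with the tubule covariate, 423 with the compared groups alone, and 150 to 437 when leaving out libraries. Adding 0.5 to both TPM moved the ratio of *Fcgr1* over *Fcgr2b* to 0.245 in controls, 0.175 on day 1 and 0.251 on day 5. Without read depth, low values such as those of *Fcgr1* carry an unknown counting error.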
